A study of Mus musculus with 4 samples.

Results

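Reelin and the genes through which it acts were described in single cortical cells of mouse fetuses. The 7 genes are Reln itself, the receptor genes Lrp8 and Vldlr, the adaptor gene Dab1, and Trp73, Lhx1 and Lhx5, which encode transcription factors of the cells that make Reelin. They were chosen by name from the 16600 genes of the deposited table, and all 7 were in it. Single-cell RNA-Seq was performed on CD24+ CD45- cells sorted from the cortex of C57BL/6J fetuses at E18.5. There were 2 wild type libraries, WT3 and WT6, and 2 SetD5 Het libraries, Het5 and Het9, from mice with one copy of the Setd5 GFP allele used as a heterozygous knockout (Setd5+/-). The allele is carried by every cell, and the sort keeps cells by a pan-neuronal surface marker and by absence of a blood cell marker. Nothing in the labels says that the libraries of a group came from separate litters, so the tests measure the spread between these libraries. Library names are the prefixes of the deposited cell names.

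Reelin is a large secreted glycoprotein made in the developing cortex chiefly by Cajal-Retzius cells, early-born neurons of the marginal zone that arise in part from the cortical hem. It binds the lipoprotein receptors encoded by Lrp8 (also called ApoER2) and Vldlr on migrating neurons, and the bound receptors pass the signal on through phosphorylation of the adaptor Dab1 by Src family kinases. Mice without Reelin, without Dab1 or without both receptors have disordered cortical layers.

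The libraries held 1453 (WT3), 1954 (WT6), 1710 (Het5) and 1445 (Het9) cells, 6562 in all, with median depths of 5398 to 5997 UMIs per cell. Setd5, the targeted gene, had mean levels of 1.18 and 1.07 UMIs per 10000 in the wild type libraries and of 0.540 and 0.586 in the SetD5 Het libraries, in the direction of the labels. Cd24a was found in 89.6% to 90.9% of cells and Ptprc, which encodes CD45, in 1.05% to 1.66%. The cells were clustered with the 7 genes, their pathway and Setd5 left out of the clustering, which gave 14 clusters. In each library, 56 cells carried a barcode present in all 4 libraries, and these 224 cells lay in the melanocyte-like cluster 11 (140 cells) and the immune-like cluster 12 (84 cells). The levels of the 7 genes in the other clusters do not include them, and every value from clusters 11 and 12 given here has that limit.

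The genes lie on 4 chromosomes in the GENCODE M21 annotation of GRCm38. Reln spans chr5:21884454-22344702 on the minus strand. Lhx5 is at chr5:120431699-120441223 on the plus strand. Dab1 (chr4:103619359-104744844) and Lrp8 (chr4:107802261-107876840) are on the plus strand, and Trp73 (chr4:154056253-154140208) is on the minus strand. Lhx1 is at chr11:84518284-84525535 on the minus strand, and Vldlr at chr19:27216484-27254231 on the plus strand. Antisense genes overlap Reln (Gm10475 and Gm16110), Lrp8 (Lrp8os1 and Lrp8os2), Trp73 (Trp73os) and Lhx5 (Gm27199), and of these Gm10475 and Gm27199 were rows of the table of their own. Whether the authors' counting used strand is not given in the sources used here, so reads from these overlaps cannot be assigned with certainty.

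The promoters of Reln, Trp73 and Lhx1 are shown because these genes were detected in the same cells. Each is a window of 300 bases, from 250 before to 50 after the start of transcription, from RefSeq on GRCm38.p6, where 6 of the 7 genes had an entry. All are printed on the minus strand, 5′ to 3′, and capitals mark the GC box GGGCGG, searched on both strands. The windows are chr5:22344656-22344955 for Reln, chr4:154139826-154140125 for the upstream of 2 Trp73 starts, and chr11:84525485-84525784 for Lhx1.
Reln: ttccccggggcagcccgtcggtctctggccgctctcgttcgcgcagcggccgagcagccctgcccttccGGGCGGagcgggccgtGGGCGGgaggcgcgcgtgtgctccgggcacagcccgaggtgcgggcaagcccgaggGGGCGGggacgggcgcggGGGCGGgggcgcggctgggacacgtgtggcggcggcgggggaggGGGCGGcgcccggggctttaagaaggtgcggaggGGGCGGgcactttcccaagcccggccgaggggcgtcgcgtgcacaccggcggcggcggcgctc
Trp73: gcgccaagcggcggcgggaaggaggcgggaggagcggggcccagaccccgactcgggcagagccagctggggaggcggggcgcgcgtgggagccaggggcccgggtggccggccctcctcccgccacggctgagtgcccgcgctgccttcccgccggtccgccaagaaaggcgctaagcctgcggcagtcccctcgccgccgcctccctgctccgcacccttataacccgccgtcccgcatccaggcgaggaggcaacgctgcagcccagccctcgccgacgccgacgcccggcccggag
Lhx1: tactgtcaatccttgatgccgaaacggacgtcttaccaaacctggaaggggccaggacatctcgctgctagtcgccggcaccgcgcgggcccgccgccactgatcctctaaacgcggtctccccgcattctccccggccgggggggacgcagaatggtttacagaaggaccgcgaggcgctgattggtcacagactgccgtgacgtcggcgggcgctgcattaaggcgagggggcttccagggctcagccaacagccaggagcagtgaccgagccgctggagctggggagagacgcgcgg
The Reln window held 6 GC boxes, and 1.35% of the 32851 promoter windows in the table held 6 or more. At least 1 GC box was present in 35.7% of all windows, and the Trp73 and Lhx1 windows shown here held none. The windows were rich in G and C, at 80.7% for Reln, 77.7% for Trp73 and 65.7% for Lhx1 against a median of 52.7%. They held 47, 39 and 31 CpG dinucleotides, where the median window held 7. The homeodomain core TAATTA, present in 5.29% of windows, and the T-box site AGGTGTGA, present in 1.28%, were found in none of the 3. The E-box CAGCTG, present in 16.3% of windows, was found once in the Trp73 window and in neither of the others.

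Reln was a rare transcript made at a high level by few cells. It was found in 180 of 6562 cells (2.74%, exact 95% interval 2.36% to 3.17%), with 687 UMIs in all. Of these cells, 102 held a single Reln UMI and 31 held 2, while the cell with the most held 44. The 47 cells with at least 3 UMIs held 523 of the 687 UMIs, or 76.1%. By library, 9 (WT3), 18 (WT6), 11 (Het5) and 9 (Het9) cells had at least 3 Reln UMIs.

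Most Reln lay in 1 cluster. Cluster 6 (510 cells), led by Tac2, Rspo3 and Nhlh2, held 565 Reln UMIs, 82.2% of the total, and 43 of the 47 cells with at least 3. Its mean Reln level was 1.44 (WT3), 1.67 (WT6), 1.52 (Het5) and 1.51 (Het9) UMIs per 10000, or 1.53 ± 0.0966 (SD, n = 4 libraries). The 4 libraries were close to each other, and all lay above every library of the next cluster. That was cluster 1 (983 cells, led by Cxcl12 and Cdh8), with 0.0912, 0.153, 0.0781 and 0.0238 in the same order of libraries. Clusters 1, 4 and 0 and the clusters after them overlapped with their neighbors in the order of Reln levels.

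At a higher clustering resolution, 95 of the cells of cluster 6 separated with 1 other cell into a group of 96 cells. Among its leading genes were 4 of 6 Cajal-Retzius cell markers (Calb2, Ebf3, Nhlh2 and Cacna2d2) and 4 of 9 cortical hem markers (Rspo3, Wnt5a, Wnt8b and Nkd1), and it is called here the Cajal-Retzius cell or hem-like group. It held 17 (WT3), 40 (WT6), 21 (Het5) and 18 (Het9) cells, 1.17%, 2.05%, 1.23% and 1.25% of each library. It was picked as the group with the most Reln UMIs, 527 of the 687 (76.7%), so that share is a description. Its mean Reln level was 8.04 (WT3), 6.60 (WT6), 9.22 (Het5) and 8.39 (Het9) UMIs per 10000. These means were carried by part of the group, since 41 of its 96 cells held at least 3 Reln UMIs, 16 held 1 or 2 and 39 held none. Trp73 was found in 68.3% of the 41 cells and 5.13% of the 39, Lhx1 in 56.1% and 2.56%, and Ebf3 in 56.1% and 5.13%, at median depths of 7592 and 8504 UMIs. The other 415 cells of cluster 6 held 38 Reln UMIs, 5.53% of the total, at a similar depth (median 8344 UMIs per cell against 8057).

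**Figure D1:**
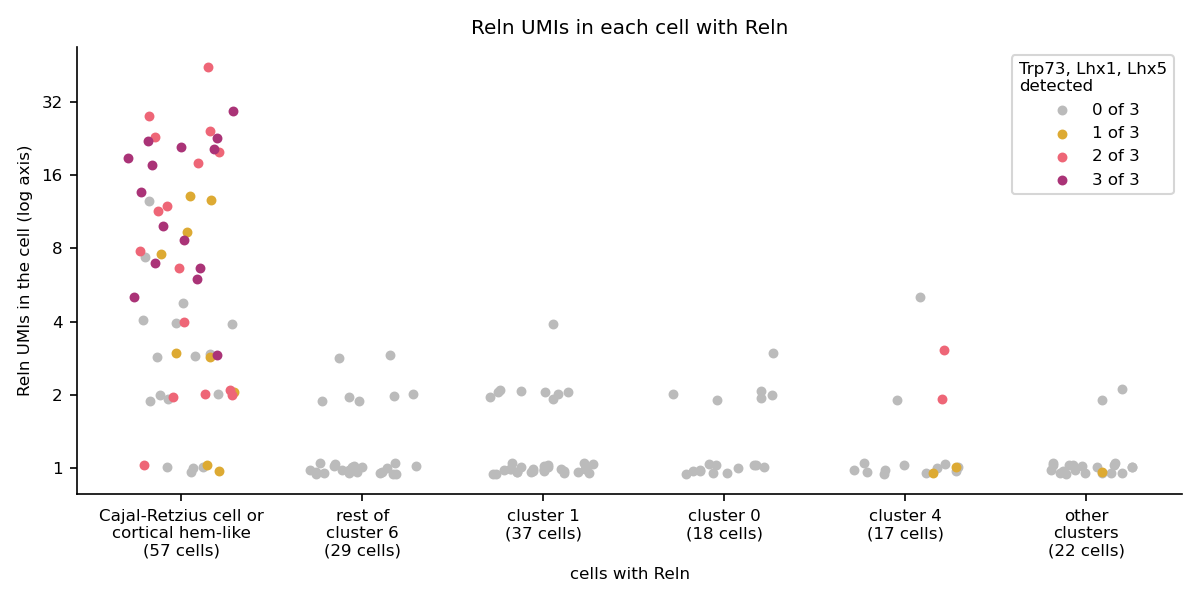
Reln UMIs (log2 axis, with slight jitter on both axes) in each of the 180 cells with Reln, by group of cells, with color for how many of Trp73, Lhx1 and Lhx5 were detected in the cell. The cells with many Reln UMIs, up to 44, lie in the Cajal-Retzius cell or hem-like group and mostly carry 1 or more of the 3 factors.

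Trp73, Lhx1 and Lhx5 followed Reln across cells. Trp73 (p73, needed for the survival of Cajal-Retzius cells) was found in 35 cells, of which 34 were in the Cajal-Retzius cell or hem-like group and 32 contained Reln. Lhx1, a LIM homeodomain factor, was found in 39 cells, 29 of them in that group and 31 with Reln. Lhx5, its close relative, was the least restricted, with 58 cells of which 31 were in the group and 30 contained Reln. All 3 factors were found together in 15 cells, and each of the 15 was in the group and held at least 3 Reln UMIs. The 81 cells with at least 1 of the factors held 477 Reln UMIs, 69.4% of the total.

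By cluster, the Trp73 level in cluster 6 was 0.146 (WT3), 0.193 (WT6), 0.149 (Het5) and 0.281 (Het9) UMIs per 10000, above every library of every other cluster. It was at 0 UMIs in all clusters but 6 and 9, 5885 cells in which a count of 0 allows a share of up to 0.051%. Lhx1 in cluster 6 was at 0.324, 0.263, 0.0452 and 0.346, with Het5 within the range of cluster 4, the next in order. Lhx5 in cluster 6 was at 0.173, 0.230, 0.131 and 0.135, and the lowest of these overlapped with cluster 7, the next, where WT3 was at 0.134.

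Outside the group, 35 cells held a factor, and 3 of them, all in cluster 4, held both Lhx1 and Lhx5. Cluster 4 (interneuron-like, 587 cells) held 7 cells with Lhx1 and 11 with Lhx5. Of these, 6 and 11 were in a subgroup of 132 cells led by Fgf15, Zic4, Zic1 and Pnoc. The leading genes of that subgroup held only 1 of 11 interneuron markers. Cluster 7 (subpallial progenitor-like, 384 cells) held 7 cells with Lhx5. The 1 Trp73 cell elsewhere was in cluster 9. Across the 14 clusters, levels of Reln correlated with those of Trp73 (r = 0.96), Lhx1 (r = 0.95) and Lhx5 (r = 0.88), on the log2(mean + 0.1) scale. These values describe 14 clusters that come from the same 4 libraries, and rest mainly on cluster 6.

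Within the Cajal-Retzius cell or hem-like group the levels of Trp73 and Lhx1 varied more between libraries than those of Reln and Lhx5. The Trp73 level was 0.814 (WT3), 0.795 (WT6), 1.01 (Het5) and 1.68 (Het9) UMIs per 10000. The Lhx1 level was 1.81, 1.09, 0.306 and 2.08 in the same order, so that Het5 was low and Het9 was the highest. The Lhx5 level was 0.808, 0.948, 0.889 and 0.807, which is a narrow range. The levels of these factors rest on few cells in each library. Trp73 was found in 5, 14, 7 and 8 cells of the group, Lhx1 in 6, 11, 3 and 9, and Lhx5 in 6, 14, 6 and 5. Rspo3, a Wnt signaling enhancer secreted by the hem, had a mean of 13.1 UMIs per 10000 over the cells of the group and was found in 83.3% of them.

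The 3 classes of cells by Reln count differed in the other genes they contained. Trp73 was found in 59.6% (exact 95% interval 44.3% to 73.6%) of the 47 cells with at least 3 Reln UMIs, in 3.01% (0.825% to 7.52%) of the 133 cells with 1 or 2, and in 0.047% (0.0097% to 0.137%) of the 6382 cells with none. Nhlh2, a basic helix-loop-helix factor of Cajal-Retzius cells, was found in 85.1%, 39.1% and 10.7% of the classes, and Ebf3 in 51.1%, 3.76% and 0.956%. Neurod6, a gene of cortical excitatory neurons, was found in 27.7% of cells with at least 3 Reln UMIs, in 69.2% of those with 1 or 2 and in 54.4% of those with none. The median depths of the 3 classes were 7592, 6635 and 5697 UMIs per cell, and the intervals cover counting error only. In the cells with 1 or 2 Reln UMIs, Neurod6 was thus found more often than Trp73, Ebf3 or Nhlh2.

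**Figure D2:**
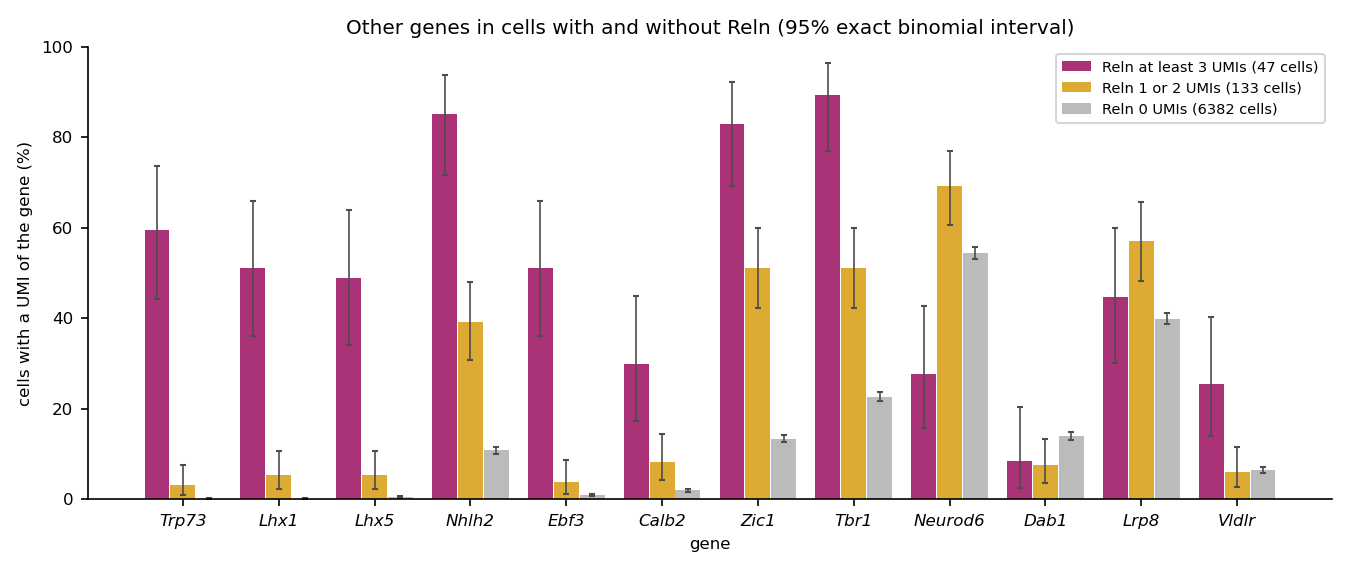
Percent of cells with a UMI of each named gene, for cells with at least 3, with 1 or 2 and with no Reln UMIs, with exact 95% binomial intervals. Trp73, Lhx1, Lhx5 and Ebf3 are frequent in the first class only, Zic1, Tbr1 and Nhlh2 are intermediate in the second, and Neurod6 is lower in the first than in the others.

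Free RNA can place single UMIs in cells that do not make a gene. Clusters 11 to 13 (melanocyte-like, immune-like and erythroid-like), types not known to make Reelin, held 0 Reln UMIs in 279 cells, which allows a share of up to 1.08%. Their median depth was 3241 UMIs, below that of the 3 classes by Reln count. Of the 279 cells, 224 carry the barcodes present in all 4 libraries, and the 55 others, at a median depth of 1995 UMIs, also held 0 Reln UMIs but allow a share of up to 5.45%. Clusters 1 and 0 had Reln in 3.76% and 1.58% of cells, and cluster 4 in 2.90%. The exact intervals of clusters 1 and 4 lay above the limit of 1.08% that rests on all 279 cells, and no share outside cluster 6 lay above that of the 55. In clusters 2, 3, 5, 7, 8, 9 and 10 the share was between 0.353% and 1.20%, which is not separable from either limit at this depth.

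The cells with Reln in clusters 0 and 1 often contained Zic1, a zinc finger factor of the hem, septum and meninges. This was examined after the values were seen and carries no test. Zic1 was found in 10 of 17 (WT3), 13 of 21 (WT6), 3 of 10 (Het5) and 4 of 7 (Het9) cells with Reln. In cells of the same clusters without Reln, Zic1 was found in 7.85%, 11.8%, 9.87% and 6.85%, lower in each library. Together the shares were 54.5% of 55 and 9.01% of 2064 cells, at median depths of 5792 and 5372 UMIs.

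In cluster 4, Reln was found in wild type cells and in no SetD5 Het cell. It was present in 6 of 139 cells of WT3 and 11 of 237 of WT6. In Het5 and Het9 it was in 0 of 123 and 0 of 88 cells. The wild type shares were 4.32% (exact 95% interval 1.60% to 9.16%) and 4.64% (2.34% to 8.15%). The counts of 0 allow shares of up to 2.44% and 3.41%, which lie within both wild type intervals. These limits cover counting error only. Of these 17 cells, 14 were in the subgroup led by Fgf15, Zic4, Zic1 and Pnoc, which itself held 43, 70, 18 and 1 cells of the 4 libraries. Within that subgroup Reln was in 5 of 43 and 9 of 70 wild type cells, 0 of 18 Het5 cells and 0 of 1 Het9 cell. The 0 of 18 allows a share of up to 16.7%, above the 11.6% and 12.9% of WT3 and WT6, so no difference was detectable there at this number of cells. The rest of cluster 4 held Reln in 1 of 96 (WT3), 2 of 167 (WT6), 0 of 105 (Het5) and 0 of 87 (Het9) cells. The last 2 allow up to 2.86% and 3.45%, above the 1.04% and 1.20% of the wild type libraries. The number of subgroup cells in a library and the presence of Reln moved together, and their part in the result was not tested.

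Dab1, the adaptor that relays the signal inside the receiving cell, was found in 904 cells (13.8%) and had 2 high clusters. In cluster 0 (excitatory neuron-like, 1136 cells, with Cntn2 and Jakmip1 among its leading genes) its level was 0.808 (WT3), 1.27 (WT6), 0.906 (Het5) and 1.36 (Het9) UMIs per 10000. In cluster 3 (radial glia-like, 700 cells) it was 1.12, 0.794, 0.930 and 0.492. The ranges of these clusters overlap, and Het9 was the highest library in cluster 0 and the lowest in cluster 3. Cluster 10 (156 cells, led by Tfap2d and Thsd7a) followed at 0.390 ± 0.267 (SD, n = 4 libraries) and overlapped with cluster 3. In cluster 6 as a whole the level was 0.0511 to 0.107, below every library of clusters 0 and 3. In its Cajal-Retzius cell or hem-like group Dab1 was at 0.157 (WT3), 0.154 (WT6), 0.290 (Het5) and 0.129 (Het9). These values, from 10 cells with Dab1, were also below every library of clusters 0 and 3. No Dab1 UMI was found in the 252 cells of clusters 11 and 12.

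Lrp8 was the most widely found of the 7 genes, with a UMI in 2641 cells (40.2%). It was highest in cluster 5 (intermediate progenitor-like, 567 cells, led by Neurog2 and Eomes), at 2.19 (WT3), 2.34 (WT6), 2.42 (Het5) and 2.31 (Het9) UMIs per 10000. Clusters 10, 1, 6 and 9 followed at 1.88, 1.76, 1.72 and 1.62 and overlapped with their neighbors in the order. A gap separated cluster 9 from cluster 0, at 1.13 ± 0.116 (SD, n = 4 libraries). The lowest neural clusters were cluster 2 (cycling cells, 0.479) and cluster 3 (0.419). Lrp8 and Dab1 were thus ordered differently, since cluster 5 had 0.118 for Dab1 and cluster 3 was the second highest for it.

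Vldlr was the rarer receptor gene, with a UMI in 427 cells (6.51%). It was highest in cluster 8 (striatal neuron-like, 370 cells), at 0.456 (WT3), 0.233 (WT6), 1.22 (Het5) and 0.413 (Het9) UMIs per 10000, with Het5 far above the other libraries. Cluster 4 followed at 0.388 ± 0.0931 (SD, n = 4 libraries), and the 2 ranges overlap. In cluster 5, where Lrp8 was highest, Vldlr was at 0.00757. In the 47 cells with at least 3 Reln UMIs, Vldlr was found in 25.5% (exact 95% interval 13.9% to 40.3%) and in 6.38% of cells without Reln, while the shares for Lrp8 were 44.7% and 39.9%.

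**Figure D3:**
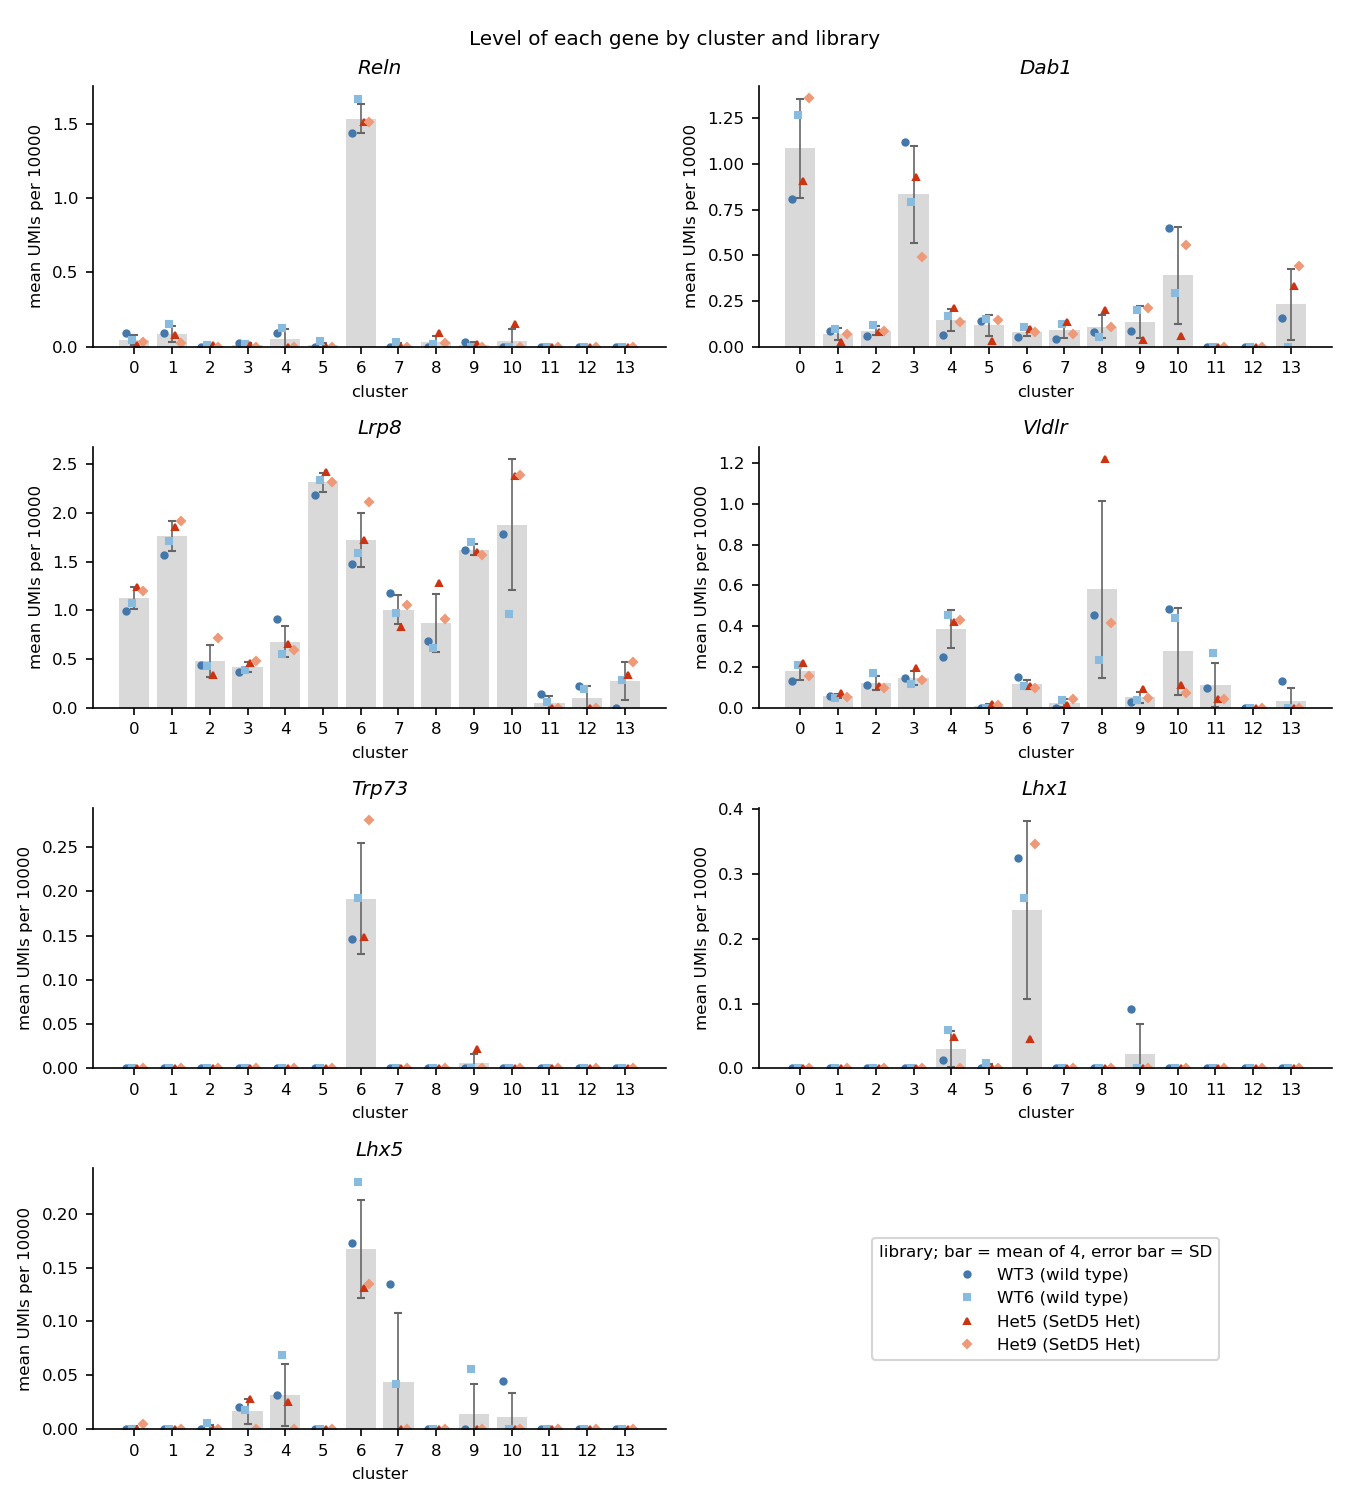
Mean level in UMIs per 10000 (linear axis, one scale per gene) of the 7 genes in the 14 clusters. Points are the 4 libraries, bars their mean and error bars the SD; Reln, Trp73 and Lhx1 peak in cluster 6, Dab1 in clusters 0 and 3, Lrp8 in cluster 5 and Vldlr in cluster 8.

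Cells in which Dab1 was detected together with Lrp8 or Vldlr were counted. A cell without both UMIs may still make both proteins, which were not measured. There were 387 such cells, 5.90% of all, of which 321 had Dab1 with Lrp8 and 97 had Dab1 with Vldlr. Cluster 0 held 198 of them, 17.4% of its cells, with 10.98% (WT3), 18.3% (WT6), 18.3% (Het5) and 21.04% (Het9) by library. Cluster 3 followed with 10.9% and cluster 10 with 9.62%, while cluster 6 had 3.53%. With every cell reduced to 3000 UMIs, which left out 526 shallower cells, the shares fell to 6.93% in cluster 0, 2.74% in cluster 3, 4.20% in cluster 10 and 0.789% in cluster 6. Clusters 11 and 12, in which no Dab1 was found, had 0 such cells in 252, and 0 in the 135 that had 3000 UMIs or more, at median depths of 5362 and 1923 UMIs. Most of these cells carry the shared barcodes.

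**Figure D4:**
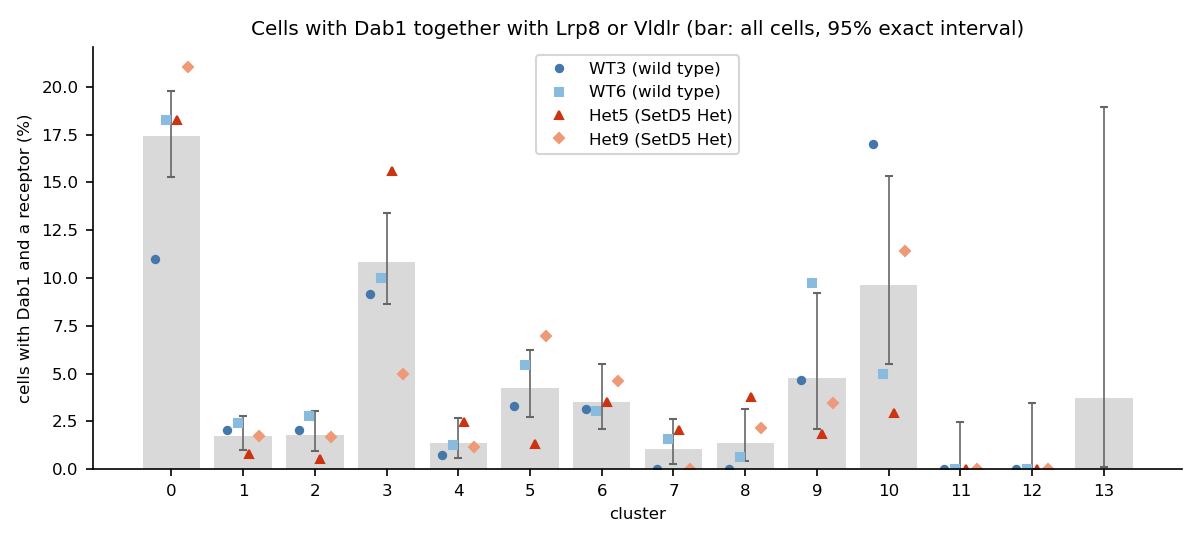
Percent of cells in each cluster with Dab1 together with Lrp8 or Vldlr (bars, with exact 95% binomial intervals over all cells) and in each library (points, not drawn for the 27 cells of cluster 13). Cluster 0 is the highest at 17.4%, with WT3 below the other 3 libraries.

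Genes with the most similar pattern over the 14 clusters were sought among those reaching 0.5 UMIs per 10000 in some cluster. For Reln they were Ppp2r2c (r = 0.97), Tac2 (r = 0.95), Klhdc8a (r = 0.90), Lhx9 (r = 0.88) and Synpr (r = 0.85), all highest in cluster 6. Within cluster 6 these genes were split between its parts, with Ppp2r2c at 2.52 UMIs per 10000 in the Cajal-Retzius cell or hem-like group and 0.0564 in the rest. Tac2 was at 1.92 and 2.48, Klhdc8a at 0.0995 and 0.748, Lhx9 at 1.15 and 0.912 and Synpr at 0.909 and 1.47, so Tac2, Klhdc8a and Synpr were lower where Reln was high. For Lrp8 they were Lzts1 (r = 0.98), Acly and Elavl2 (both r = 0.95), all highest in cluster 5. For Vldlr they were Irf2bpl (r = 0.90), Dclk1 (r = 0.88) and Cacnb4 (r = 0.87), and for Dab1 Elovl6 and Ptn (both r = 0.82) and Ntm (r = 0.77). Trp73, Lhx1 and Lhx5 were each nearest to Ppp2r2c (r = 0.97, 0.96 and 0.90) and then to Reln. Reln and Dab1 levels had r = -0.06 over the same clusters, and Lrp8 and Vldlr r = 0.11.

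The genotypes were compared to see whether loss of one Setd5 copy changed these genes. Over all cells, the Reln level was 0.137 (WT3) and 0.192 (WT6) in wild type and 0.149 (Het5) and 0.126 (Het9) UMIs per 10000 in SetD5 Het libraries. The groups overlap, and the log2 fold change of SetD5 Het over wild type was -0.15 ± 0.12 (SE) on the log2(mean + 0.1) scale. Lrp8 was at 1.10 and 1.02 in wild type and at 1.19 and 1.29 in SetD5 Het libraries, and here the groups did not overlap, as was the case for 32% of all genes. Its log2 fold change was 0.21 ± 0.07 (SE), with an unadjusted p of 0.0184 and an adjusted p of 0.994 in limma. Dab1, at 0.292 and 0.349 against 0.347 and 0.428, and Vldlr, at 0.131 and 0.165 against 0.174 and 0.130, overlapped, with log2 fold changes of 0.21 ± 0.11 and 0.02 ± 0.12. Without 1 library the Dab1 value was between 0.093 (without Het9) and 0.33 (without Het5).

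None of the 4 members at or above the minimum level of 0.1 was called by limma over all cells at an adjusted p of 0.05 (1 at an unadjusted p under 0.05), where 7 of 8137 genes (0.086%) were called and 4.34% had an unadjusted p under 0.05. Summed UMIs in place of the mean of cells gave 0 called members as well, with 0 at an unadjusted p under 0.05, against 3.4% of all genes. Trp73, Lhx1 and Lhx5 were under that level. The percent of cells with Reln was 2.62 (WT3), 3.53 (WT6), 2.69 (Het5) and 1.87 (Het9), a mean of 3.07 in wild type and 2.28 in SetD5 Het libraries. The difference was -0.794 percentage points (exact two-sided permutation test, p = 0.667), in a design of 2 against 2 that cannot give a p under 0.333. With cells thinned to 3000 UMIs the shares were 1.85, 2.75, 1.20 and 1.14, which do not overlap, at the smallest p the design allows.

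Within clusters, the 13 clusters in which each library had 20 cells or more were tested, and 31 pairs of a member and a cluster passed the minimum level. None was called (adjusted p 0.843 to 0.998). An unadjusted p under 0.05 was found in 5 of the 31, against 5.13% of all tests in the 13 clusters. The libraries of the genotypes did not overlap in 14, against 33.7% of all tests. The share of all genes called was 0.0643% in cluster 6, 0.0779% in cluster 0, 0.118% in cluster 1, 0.108% in cluster 2 and 0.242% in cluster 3. It was 0.0651% in cluster 4, 0.173% in cluster 5, 0.46% in cluster 7, 0.12% in cluster 8, 0.0657% in cluster 9, 0.0128% in cluster 10, and 0% in clusters 11 and 12. Reln in cluster 6, with the library levels given above, had a log2 fold change of -0.03 ± 0.13 (SE). The log2 fold changes there were 0.20 ± 0.25 for Trp73, -0.62 ± 0.37 for Lhx1 and -0.36 ± 0.22 for Lhx5, and of the 3 only Lhx5 had libraries that did not overlap between genotypes.

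Lrp8 was tested in 12 clusters. Both SetD5 Het libraries were above both wild type libraries in 6 of them (clusters 0, 1, 3, 6, 8 and 10), below them in 2 (clusters 9 and 12), and overlapped with them in 4. In cluster 12 the Lrp8 level rests on 2 UMIs, and 84 of its 105 cells carry the shared barcodes. Over all genes tested in these 12 clusters, 16.3% of tests had both SetD5 Het libraries above and 17.5% below. These clusters come from the same 4 libraries and are not separate evidence, and none of the 12 was called.

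The 5 tests with an unadjusted p under 0.05 concerned the receptor genes, and 0 of the 5 stayed under it with every library left out in turn. In cluster 10, Lrp8 was at 1.78 and 0.960 in wild type and at 2.38 and 2.39 in SetD5 Het libraries (log2 fold change 0.81 ± 0.30). That value leaned on WT6, without which it was 0.40 at an unadjusted p of 0.243 in limma. Vldlr in the same cluster was at 0.482 and 0.439 against 0.110 and 0.0714 (-1.56 ± 0.55), on the other side of 0, and for each the adjusted p was 0.930. In cluster 8, Lrp8 was at 0.685 and 0.613 against 1.28 and 0.912 (0.66 ± 0.28), without overlap. Vldlr in cluster 8 was higher in Het5 alone, as given above (0.93 ± 0.38, adjusted p = 0.845 in limma). Without Het9 its log2 fold change was 1.62, in a fit where the lone SetD5 Het library is assumed to vary like the other group. Without Het5 it was 0.25 and without WT6 0.57, so the value rests on Het5. In cluster 6, Lrp8 was at 1.48 and 1.58 against 1.73 and 2.11 (0.30 ± 0.13, adjusted p = 0.948), and the value was between 0.17 (without Het9) and 0.44 (without Het5).

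Dab1 in cluster 3, at 1.12 and 0.794 in wild type and 0.930 and 0.492 in SetD5 Het libraries, had a log2 fold change of -0.42 ± 0.21 (adjusted p = 0.920). Without Het5 it was -0.82, again with the spread of the lone SetD5 Het library taken from the other group. Without Het9 it was -0.021, so the value rests on Het9. In the other direction, Dab1 in cluster 0 had a log2 fold change of 0.12 ± 0.19, and its genotypes overlapped. The 2 clusters with the most Dab1 were thus not called in either direction.

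In the Cajal-Retzius cell or hem-like group, which was compared after the values were seen, the Reln and Trp73 levels of both SetD5 Het libraries lay above those of both wild type libraries, and neither was called. The libraries did not overlap, in either direction, for 33.1% of all genes there. With 17 and 18 cells in WT3 and Het9, the group was under the minimum of 20 cells per library used for clusters. It was tested without that minimum. The library levels are those given above, and the log2 fold changes were 0.27 ± 0.19 for Reln and 0.64 ± 0.34 for Trp73 (both adjusted p = 0.985 in limma). Lhx1 (-0.68 ± 0.45) and Lhx5 (-0.04 ± 0.35) overlapped between genotypes. Of 8187 genes, 6 (0.0733%) were called in this group.

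The genotype effect in a cluster was also compared with that in all other cells. Of 55 tests of a member, none was called by limma (lowest adjusted p 0.339) and 8 had an unadjusted p under 0.05. Of all tests over the 13 clusters, 0.000881% were called and 5.44% had an unadjusted p under 0.05. In 5 of the 55 (Dab1 and Reln in clusters 11 and 12, Vldlr in cluster 12) the member was at 0 in every library of the cluster, so the value there is that of the other cells alone. The lowest adjusted p was that of Lrp8 in cluster 12, where both SetD5 Het libraries were at 0, the wild type libraries held 2 UMIs in all and the value depends on the 0.1. Reln in cluster 4, absent from both SetD5 Het libraries, had an unadjusted p of 0.00548 and an adjusted p of 0.825 there.

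**Figure D5:**
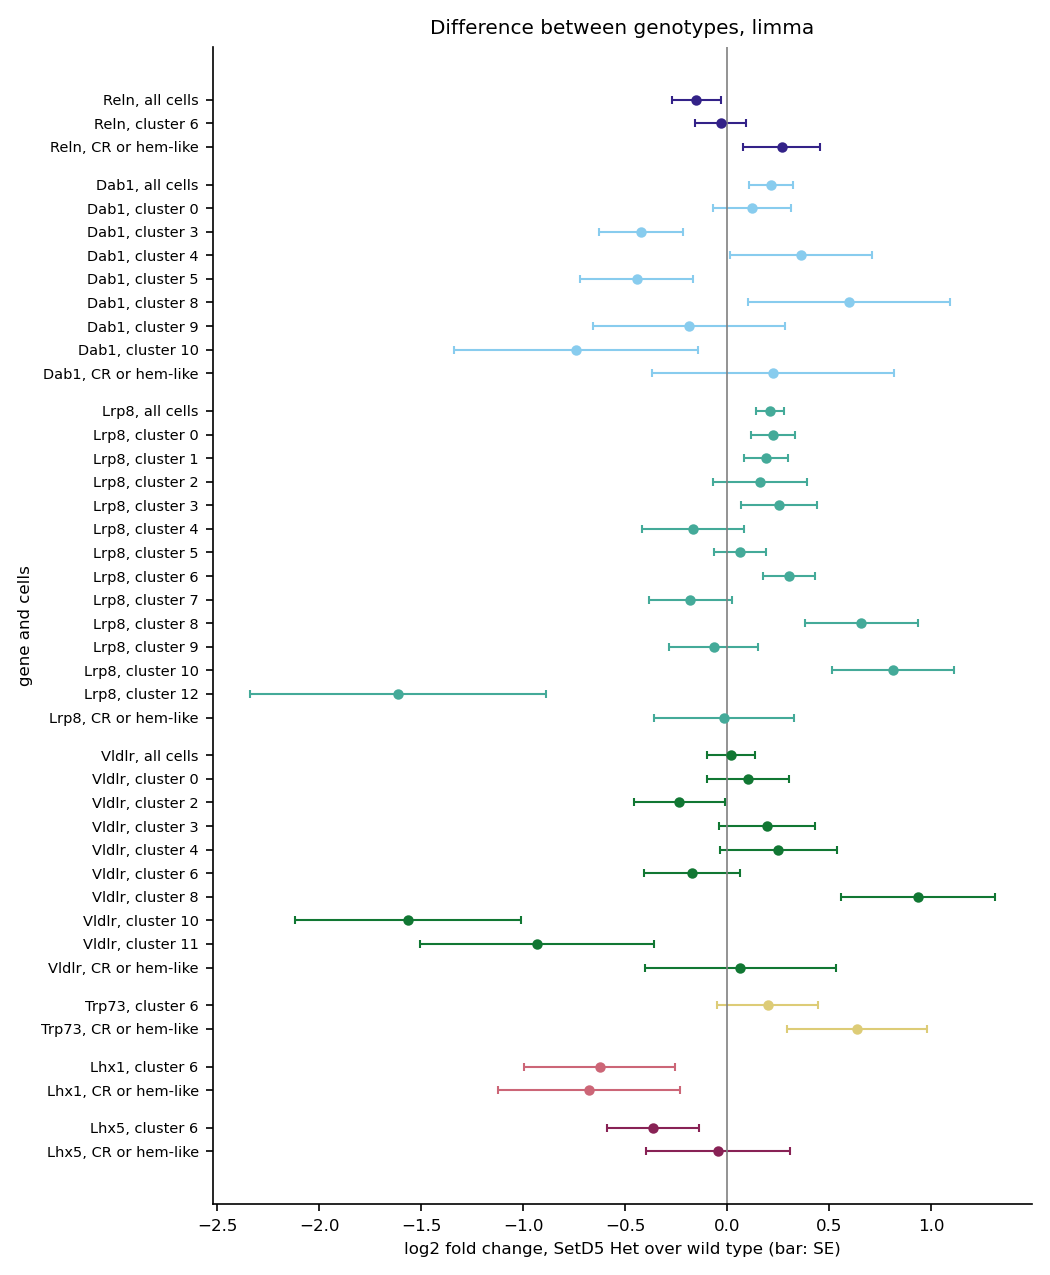
Log2 fold change of SetD5 Het over wild type (points, with SE) on the log2(mean + 0.1) scale for every test of a member over all cells, in clusters and in the Cajal-Retzius cell or hem-like group (CR or hem-like). No point is past the threshold; for Lrp8 in cluster 12 both SetD5 Het libraries were at 0, so its position depends on the 0.1.

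Other genes of the pathway were described from a list of 72 genes in 6 roles, of which 71 were in the table and 45 passed the minimum level over all cells. None of the 45 was called by limma in either direction, 2 were higher and 1 lower at an unadjusted p under 0.05 (2.16% and 2.18% of all genes), and 25 had a positive log2 fold change. Their median log2 fold change was 0.01, where the median over all 8137 genes was -0.00237. By role, the tested genes numbered 3 of 12 for ligand processing and other receptor ligands, 4 of 6 for receptor turnover and trafficking, 10 of 12 for kinases and adaptors, 17 of 19 for effectors, 4 of 5 for Dab1 breakdown and 7 of 18 for Cajal-Retzius or hem genes. The medians by role were 0.26, -0.04, 0.01, 0.02, -0.01 and 0.01 in that order.

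Apoe, a lipoprotein that binds the same receptors, had the largest fold change of the list, at 0.863 and 0.873 UMIs per 10000 in wild type and 1.29 and 1.03 in SetD5 Het libraries (log2 fold change 0.38 ± 0.10, adjusted p = 0.748). It was highest in the melanocyte-like cluster 11 (11.1) and the immune-like cluster 12 (8.14), the clusters that hold the shared barcodes, and without the cells with those barcodes its log2 fold change was 0.44 ± 0.14. Cacna2d2, a calcium channel subunit of Cajal-Retzius cells, was at 0.113 and 0.164 against 0.0918 and 0.0741 (-0.38 ± 0.12, adjusted p = 0.994). It was found in 38.5% of the Cajal-Retzius cell or hem-like group and in 39.4% of the subgroup of cluster 4 led by Fgf15 and Zic genes, which held 43, 70, 18 and 1 cells of the libraries. Without that subgroup its levels were 0.0871 and 0.121 against 0.0797 and 0.0742, a mean of 0.0904 that is under the minimum for a test. Clu, which also binds these receptors, was at 0.1003 and 0.144 against 0.166 and 0.163 (0.26 ± 0.11, adjusted p = 0.994). None of the 3 was called.

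The best expressed gene of each role lay in different clusters from Reln in all but 2 roles. Map1b, a microtubule protein phosphorylated downstream of Reelin, was the highest effector, at 28.6 UMIs per 10000 in cluster 8 and 13.9 in cluster 6. Fyn, a kinase that phosphorylates Dab1, was highest in cluster 10 (1.93) and next in cluster 0 (1.70), where Dab1 was also high. Rnf7, part of the ligase that degrades phosphorylated Dab1, was highest in cluster 2 (2.80). Lrpap1, a chaperone of the lipoprotein receptors, was highest in cluster 6 (3.09) and next in cluster 0 (2.48), though at 1.61 in the Cajal-Retzius cell or hem-like group and 3.48 in the rest of cluster 6. Rspo3 was highest in cluster 6 (2.59), and at 13.1 in that group.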

How the data were processed

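The authors deposited natural log values, the ln of 1 plus a cell's counts scaled to 10000 UMIs. Tools listed by the submitters in their processing notes were Seurat 2.3.0 and Cell Ranger 2.1, with reads on mm10. Annotation, strand setting and cell filters were not given in the sources used here. Whole UMIs were recovered for 100% of 14848520 values above 0 (tolerance 0.001). Libraries held 8205330 to 11742956 UMIs. Cells were clustered with scanpy 1.11.5 (2000 variable genes, 20 principal components, 20 neighbors, Leiden resolution 0.4). Scrublet called 64 doublets (0.975%), which were kept. Library means of counts per 10000 were compared as log2(mean + 0.1) with limma 3.58.1 (trend, genes with a mean of at least 0.1, Benjamini-Hochberg adjustment, threshold 0.05), tested on simulated data. No count model was run on the recovered UMIs. Intervals are exact binomial, and a count of 0 in n cells is given as allowing a share of up to 3 in n. The 7 genes, the lists and the comparisons were chosen with earlier results of these data known. Named were the 7 genes, of the pathway list the called genes or else the 3 with the largest change and the best expressed gene of each role, and the 5 (Reln) or 3 genes nearest in pattern. Zic1, the other genes set against Reln counts, and the genes that lead clusters were named after their values were seen. Some genes are not reported here. Bulk RNA-Seq, imaging and behavior were not analysed here.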

Additional observations from a re-analysis of the deposited data

How the results depend on the processing

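No paired analysis was possible because the library prefixes carry no replicate number that matches the sample labels. The number of members called over all cells was 0 under each of the 11 alternatives, and that of other pathway genes 0 under each of 10. The number called within clusters was 0 except without Het5 (Dab1 in cluster 3) or without Het9 (Vldlr in cluster 8), which each gave 1, so the range over libraries left out was 0 to 1. Each of these fits has a lone SetD5 Het library, assumed to vary like the wild type group. In both, genes in general were called more often in that cluster than with all 4 libraries. Neither count is therefore read as a result for Dab1 or Vldlr.

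The direction of some uncalled changes turned. With summed UMIs, Vldlr over all cells had a log2 fold change of -0.028. With each library left out in turn, those over all cells ranged from -0.11 (without Het5) to 0.15 (without Het9) for Vldlr, also turning without WT3, and from -0.30 (without WT3) to 0.000363 (without WT6) for Reln. In cluster 6 they ranged from -0.13 (without WT3) to 0.068 (without WT6) for Reln, from -0.11 (without Het9) to 0.50 (without Het5) for Trp73 and from -1.43 (without Het9) to 0.19 (without Het5) for Lhx1. In cluster 0 they ranged from -0.18 (without WT3) to 0.42 (without WT6) for Dab1, also turning without Het9. At another resolution, in the highest cluster with at least 20 cells in every library, Dab1 had -0.37 (lower resolution), Lrp8 -0.024 (higher) and Reln 0.64 (higher, in a cluster of 377 cells that lacks the Cajal-Retzius cell or hem-like group). The causes were not tested.

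The difference in the percent of cells with Reln stayed negative, at -0.137 to -1.25 percentage points. A p in a 2 against 2 design says nothing of its stability.

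Levels in the highest cluster moved with the clustering, since the cells averaged change. At the lower resolution (6 clusters) they were 0.988 for Reln, 0.740 for Dab1, 1.65 for Lrp8 and 0.120 for Lhx5. At the higher resolution (19 clusters) they were 8.06 for Reln, 1.68 for Dab1, 2.53 for Lrp8, 1.07 for Trp73, 1.32 for Lhx1 and 0.863 for Lhx5. With the members and pathway genes allowed in the clustering, a cluster of 35 cells formed that had 19.0 for Reln, 2.61 for Trp73, 3.10 for Lhx1 and 1.61 for Lhx5, and Lrp8 was at 2.65 in its highest cluster.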
